A study of Danio rerio with 12 samples.

Results

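Whole zebrafish embryos exposed to 50 µg/L methylmercury were compared with whole embryos exposed to 30 µg/L, with 3 libraries a side. The 6 libraries were taken by their labels, MeHg50 and MeHg30, from a series of 12 that also holds 3 unexposed control and 3 MeHg6 libraries (6 µg/L). All embryos were wild type, exposure ran from 4 to 72 h post-fertilisation, and the labels name no other agent. The embryo as a whole was sampled, so every organ contributed RNA, and the labels do not say how many embryos made a sample or whether samples came from separate clutches. The p-values below therefore measure the spread between these libraries, which may be technical. Of the 32057 genes of the deposited table, 19539 had a mean FPKM (a read count scaled for gene length and library total) of at least 0.5 over the 6 libraries and were tested.

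Methylmercury is an organic mercury compound that binds the thiol groups of cysteine and glutathione and the selenol groups of selenoproteins. Bound to cysteine it is carried into cells by transporters of large neutral amino acids, and it is best known as a toxicant of the developing brain and sensory organs. Cells meet it with metal-binding metallothioneins, with glutathione and the enzymes that the transcription factor Nrf2 switches on, and with chaperones and proteasomes that handle damaged protein.

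The 6 libraries held 17586230 to 22207603 counted reads each. Spearman correlations of log expression were 0.993 to 0.995 within a dose and 0.977 to 0.981 between the doses. The first principal component took 67.9% of the variance. The biological coefficient of variation was 0.0779 at 30 µg/L and 0.0643 at 50 µg/L, against 0.311 in the controls and 0.103 at 6 µg/L. Of 65 markers of 20 tissues, 62 reached a mean FPKM of 0.5, and each tissue had at least 1 such marker, so no organ was without its markers. Levels are given as CPM, read counts scaled to a common library total, which can be compared between libraries but not between genes of different length. In RNA from whole embryos, fewer cells of a type and less RNA per cell cannot be told apart. Near-identical copies, such as ferritin-like, Hsp70, class I and opsin genes, may share reads, and their single values are uncertain.

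Between 30 and 50 µg/L, 5829 genes changed at an adjusted p under 0.05 in edgeR's quasi-likelihood test, 29.8% of those tested. Of these, 2940 genes (15% of those tested) were higher and 2889 (14.8%) lower at 50 µg/L. The changes were mostly small. The median size of a called log2 fold change was 0.45, a 1.37-fold difference, with quartiles of 0.308 and 0.725. A change of at least 1 on the log2 scale was reached by 377 higher genes (1.93%) and 441 lower genes (2.26%). The 3 libraries of each dose did not overlap for 4159 genes that were higher (21.3%) and 4328 that were lower (22.2%). When the 12 libraries were fitted together, so that the wide spread of the controls entered the error, 1674 genes were called (8.57%), 815 of them higher (4.17%) and 859 lower (4.4%). For whole lists, and for named genes that lost the call in it, that second fit is given below. For some genes the spread of the controls came largely from control replicate 3. For example, capn2l had 0.205, 0.561 and 45.7 CPM and grin1b 48.8, 52.4 and 200.6 CPM in control replicates 1 to 3. How much of the whole control spread that library made was not tested. A value written with ± is a log2 fold change with its standard error, 3 libraries against 3, positive where the level was higher at 50 µg/L.

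**Figure D1:**
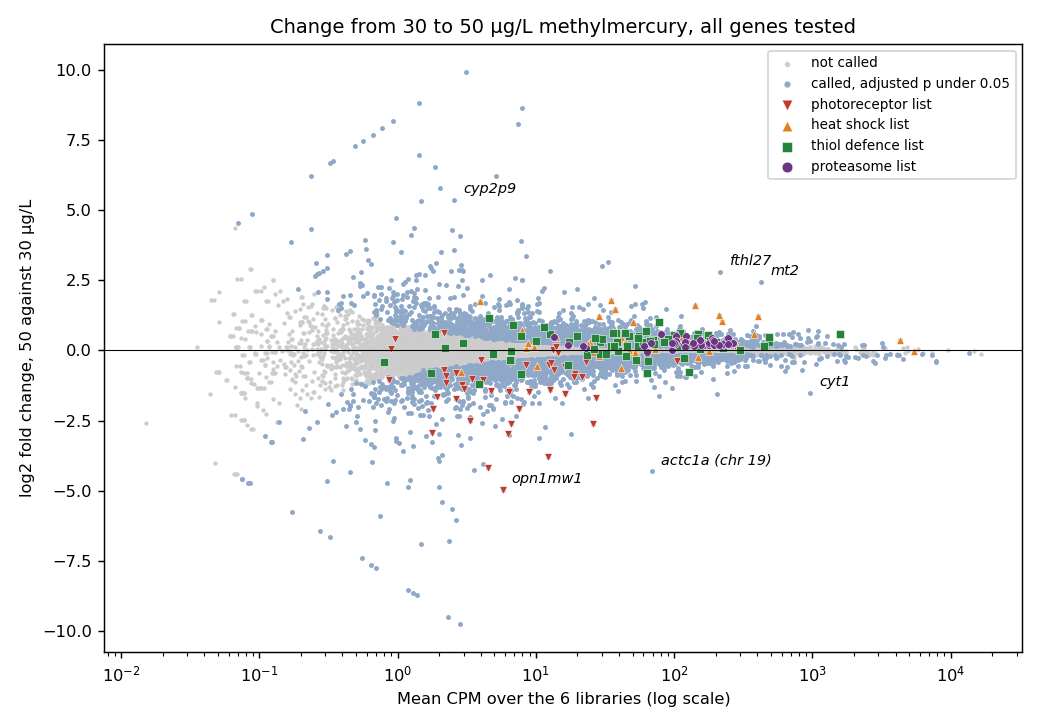
Each point is a gene tested, with the mean CPM over the 6 libraries on a log axis and the log2 fold change of 50 against 30 µg/L on the vertical axis. Called genes spread to both sides of 0 at every level, most photoreceptor genes lie below 0, and most of the heat shock, thiol defence and proteasome genes lie above it.

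Across the gene lists, photoreceptor genes held the highest share of lower members and proteasome genes the highest share of higher members among lists with at least 10 members tested. Of 48 photoreceptor genes tested, 38 were lower (79.2%). Of 41 proteasome genes, 29 were higher (70.7%). In the visual cycle list 3 of 16 members were higher and 3 lower, near the shares of all genes, and in the ribosome list 4 of 74 were higher and 4 lower, below them.

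**Figure D2:**
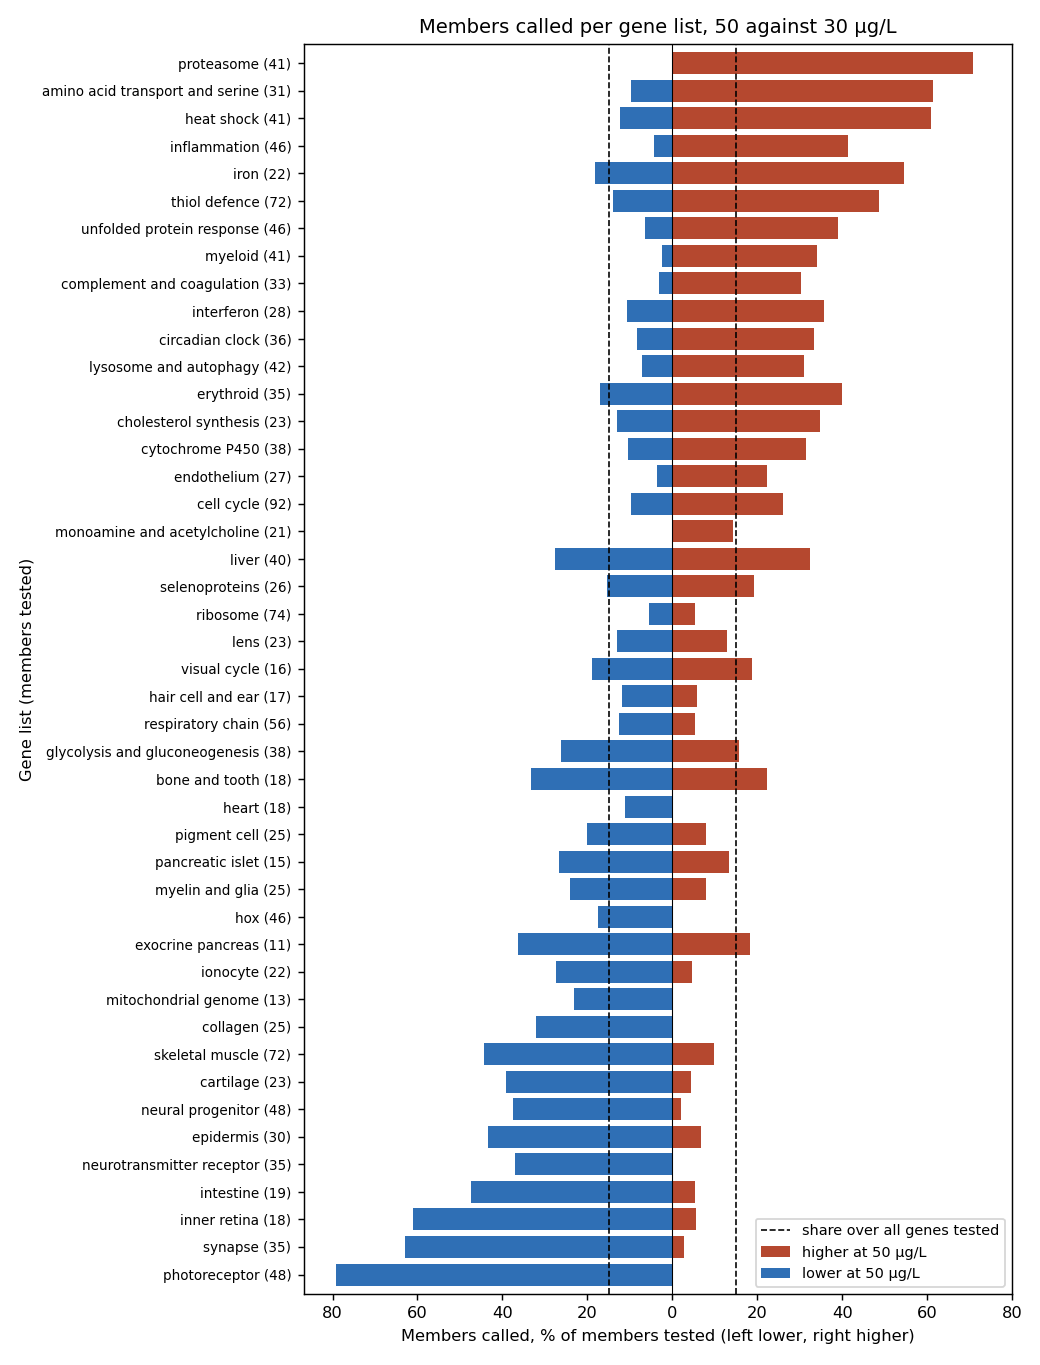
Bars give the percentage of tested members called lower (left) and higher (right) at 50 against 30 µg/L for the gene lists described here with at least 10 members tested, and dashed lines mark the shares over all genes tested, 14.8% and 15%. Photoreceptor, synapse and inner retina lists reach farthest to the left, and proteasome, heat shock and amino acid lists farthest to the right.

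Metal-binding and zinc-export genes rose between the doses. Metallothionein mt2 (ENSDARG00000041623, chromosome 18, 17534627 to 17535979, forward strand) encodes the small cysteine-rich protein that holds zinc, copper, cadmium and mercury. Its level was 145, 101 and 154 CPM at 30 µg/L and 734, 709 and 720.1 CPM at 50 µg/L. The 3 values at 50 µg/L lay far above the 3 at 30 µg/L, and below both doses stood 34.6, 33.4 and 15.8 CPM in the controls and 18.01, 16.7 and 13.8 CPM at 6 µg/L. The log2 fold change was 2.44 ± 0.11 (edgeR adjusted p = 2.7e-10). The plasma membrane zinc exporter slc30a1a rose by 0.91 ± 0.076, with 35.5, 36.2 and 40.3 CPM at 30 µg/L and 65.9, 67.3 and 76.3 CPM at 50 µg/L. In the opposite direction, slc39a10 and slc39a13, transporters of the family that brings zinc into the cytosol, fell (−0.59 ± 0.072 and −0.53 ± 0.071). In the whole list of metallothionein and zinc genes, 3 of 8 tested were higher and 2 lower. In the fit of all 12 libraries 2 were higher and 1 lower. There the call of slc39a13 was lost.

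Iron genes rose in greater share than all genes. Of 22 tested, 12 were higher (54.5%) and 4 lower, with a median log2 fold change of 0.29 against −0.0063 over all genes. The ferritin heavy chain-like symbol fthl27, for a protein of the iron-storing shell, stands on a pair of gene IDs on chromosome 3. The first (ENSDARG00000031776, chromosome 3, 32099507 to 32100999, forward strand) had 61.6, 49.8 and 50.4 CPM at 30 µg/L and 379, 378 and 359 CPM at 50 µg/L. The second (ENSDARG00000116586, chromosome 3, 32139666 to 32140446, forward strand) had 5.36, 8.65 and 6.43 CPM at 30 µg/L and 47.0, 63.5 and 68.2 CPM at 50 µg/L. Both were higher in each library at 50 µg/L than in any at 30 µg/L, by 2.79 ± 0.076 and 3.15 ± 0.15. The first had 133, 115 and 111 CPM in the controls and 103, 80.8 and 86.4 CPM at 6 µg/L, so its levels at 30 µg/L were the lowest of the series. Another ferritin-like gene, fthl31 ENSDARG00000094210, chromosome 3, 32118670 to 32120354, forward strand, rose by 1.59 ± 0.14. Transferrin tfa, the iron carrier of plasma, fell (−0.71 ± 0.064), with group means of 2012, 841, 1051 and 639 CPM at 0, 6, 30 and 50 µg/L. Haem oxygenase hmox1a, which frees iron from haem and is a known Nrf2 target, was lower at 50 than at 30 µg/L, at 44.4, 42.1 and 43.1 CPM at 30 µg/L and 27.6, 30.1 and 32.4 CPM at 50 µg/L (−0.52 ± 0.074, adjusted p = 7.6e-05). With all 12 libraries fitted, 6 iron genes were higher and 1 lower. There the call of hmox1a was lost.

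Genes of thiol defence were higher in greater share than all genes. Of 72 tested, 35 were higher (48.6%) and 10 lower (13.9%), with a median of 0.29. In glutathione synthesis and recycling, 10 of 18 were higher and 3 lower. The subunits of glutamate-cysteine ligase, the rate-limiting step of glutathione synthesis, rose together, gclc by 0.57 ± 0.070 and gclm by 0.52 ± 0.069. The level of gclc was 87.3, 71.8 and 83.5 CPM at 30 µg/L and 117, 119.7 and 121 CPM at 50 µg/L, with no overlap between the doses. Glutathione reductase gsr, which returns oxidised glutathione to its reduced form, rose by 0.60 ± 0.071, with group means of 25.2, 45.5, 118 and 178 CPM at 0, 6, 30 and 50 µg/L. Cystathionine beta-synthase cbsb, which feeds cysteine synthesis, rose by 0.63 ± 0.064. Fitted with the other 6 libraries, 15 thiol defence genes were higher and 3 lower. There the call of gclm was lost.

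Among thioredoxin and peroxiredoxin genes, 6 of 12 were higher and 1 lower. Peroxiredoxin prdx1, which removes peroxides through a reactive cysteine, had 446, 374 and 411 CPM at 30 µg/L and 569.9, 552 and 568 CPM at 50 µg/L. The doses did not overlap and the change was 0.46 ± 0.060, while the controls and the 6 µg/L embryos had means of 57.4 and 106 CPM. Its relative prdx6 rose by 0.42 ± 0.062, and thioredoxin reductase txnrd3, a selenoenzyme that recharges thioredoxin, by 0.32 ± 0.058. The lower member was prdx5, found in mitochondria and peroxisomes, which fell (−0.78 ± 0.065), with 162, 177 and 150.4 CPM at 30 µg/L and 96.9, 93.2 and 93.4 CPM at 50 µg/L. When 12 libraries were fitted, prdx6, prdx1 and txnrd3 lost the call.

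Conjugating enzymes were mixed, with 8 higher and 5 lower of 21. Glutathione transferase gstp1, the pi-class enzyme, had 1328, 1174 and 1259 CPM at 30 µg/L and 1993, 1821 and 1866 CPM at 50 µg/L, a rise of 0.60 ± 0.054 (adjusted p = 6.1e-07) without overlap. Its group means were 294, 614, 1254 and 1894 CPM at 0, 6, 30 and 50 µg/L. The omega-class transferases gsto1 and gsto2 rose by 1.14 ± 0.15 and 1.00 ± 0.11, and the alpha-class gsta.1 by 0.71 ± 0.092. The microsomal transferase mgst2, a gene named for its small p rather than as a list member, had 11.2, 11.3 and 11.4 CPM at 30 µg/L and 42.5, 37.7 and 43.7 CPM at 50 µg/L and rose by 1.87 ± 0.085, although its 30 µg/L level lay under the controls, at 29.8, 23.7 and 11.8 CPM. Under the 12-library fit gsta.1 and gstp1 lost the call.

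Among regulators of these genes, 6 of 12 were higher and 1 lower. The Nrf2 sensor keap1a rose by 0.62 ± 0.069, the haem-binding repressor bach1a by 0.85 ± 0.11, and nfe2l1a and nfe2l1b, factors that drive proteasome genes, by 0.92 ± 0.14 and 0.43 ± 0.067. The lower one was the Nrf2 gene nfe2l2a itself (−0.34 ± 0.068, adjusted p = 0.0013), named after its value was seen. Of the enzymes that make NADPH, the reductant of both systems, 5 of 9 were higher and 0 lower. The pentose phosphate enzymes pgd and tktb rose by 0.53 ± 0.061 and 0.31 ± 0.053, and cytosolic isocitrate dehydrogenase idh1 by 0.46 ± 0.058. Once the other 6 libraries entered, tktb lost the call.

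Catalase and the superoxide dismutases went both ways. Of 5 tested, 1 was higher and 2 were lower. Catalase cat, which splits hydrogen peroxide, fell (−0.58 ± 0.063), with 62.4, 60.6 and 63.8 CPM at 30 µg/L and 41.9, 40.7 and 41.8 CPM at 50 µg/L. The secreted dismutase sod3a fell (−1.62 ± 0.13) and the cytosolic dismutase sod1 rose by 0.26 ± 0.069. Selenoproteins and the genes that make them had 5 higher and 4 lower of 26, with shares of 19.2% and 15.4%, near those of all genes. The endoplasmic reticulum selenoprotein selenos rose by 0.63 ± 0.078, and selenoh and selenoj by 0.48 ± 0.070 and 0.62 ± 0.095, whereas the methionine sulfoxide reductase msrb1a fell (−0.63 ± 0.082). The muscle and brain selenoprotein selenow1 had 29.8, 39.6 and 29.4 CPM at 30 µg/L and 23.2, 23.4 and 26.5 CPM at 50 µg/L, a change of −0.42 ± 0.11 that was −0.27 without MeHg30 replicate 2. Its means over the 4 groups were 262, 137, 33.0 and 24.4 CPM, the 2 upper doses far below the rest. In the fit of all 12 libraries 2 selenoprotein genes were higher and 0 lower, and of the oxygen enzymes 0 and 2. There the calls of msrb1a, selenow1, sod1 and selenoh were lost.

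Heat shock genes rose. Of 41 tested, 25 were higher (61%) and 5 lower, with a median of 0.36. Among the cytosolic Hsp70 and Hsp90 chaperones, which refold stress-damaged protein, 10 of 13 were higher, 0 were lower, and the median was 1.22. The inducible chaperone hsp70.3 (ENSDARG00000021924, chromosome 3, 26123736 to 26127091, forward strand) had 77.3, 46.2 and 83.8 CPM at 30 µg/L and 187, 213 and 236 CPM at 50 µg/L. It was higher in each 50 µg/L library, by 1.62 ± 0.15 (adjusted p = 7.8e-07), and stood at 37.2, 17.9 and 18.9 CPM in the controls and 23.1, 24.1 and 19.1 CPM at 6 µg/L. The neighbouring Hsp90 genes hsp90aa1.1 and hsp90aa1.2 rose by 1.25 ± 0.052 and 1.22 ± 0.11. The first, active in developing muscle, had 124, 126 and 126 CPM at 30 µg/L and 293, 303 and 297 CPM at 50 µg/L and its 30 µg/L values lay under the control mean of 166 CPM, whereas hsp90aa1.2 had group means of 103, 137, 241 and 562 CPM. The Hsp70 family members hspa4a, hspa8b and hsp70l rose by 1.05 ± 0.061, 1.46 ± 0.11 and 1.22 ± 0.13.

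Of the co-chaperones and small heat shock proteins, 15 of 28 were higher and 5 lower. The Hsp40 genes dnajb1b and dnaja1, whose proteins hand clients to Hsp70, rose by 1.03 ± 0.096 and 0.67 ± 0.083, and the mitochondrial chaperonin hspd1 by 0.60 ± 0.058. The Hsp90 co-chaperone fkbp5, a glucocorticoid target gene, fell (−0.62 ± 0.080), with group means of 78.1, 57.3, 49.7 and 32.3 CPM at 0, 6, 30 and 50 µg/L. Of 9 subunits of the cytosolic CCT chaperonin, which folds actin and tubulin, 3 were higher, cct3, cct5 and cct6a by 0.21 ± 0.052, 0.21 ± 0.049 and 0.20 ± 0.050, and 0 were lower. Without MeHg30 replicate 3, 5 of them were higher. With all 12 libraries fitted, 15 heat shock genes were higher and 2 lower, and 0 chaperonin genes were called. Lost there were the calls of cct3, cct6a and cct5.

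Proteasome genes rose by small amounts in the same direction. The proteasome degrades ubiquitin-tagged protein, with a barrel-shaped core capped by regulatory particles. Of 41 genes tested, 29 were higher, 0 were lower and the median was 0.23. In the core particle 9 of 15 were higher, among them psma3 (0.32 ± 0.061) and the catalytic subunit psmb5 (0.23 ± 0.054). Among regulatory and assembly genes 20 of 26 were higher. The ubiquitin receptor psmd4b had 106, 93.6 and 104 CPM at 30 µg/L and 148, 141 and 142 CPM at 50 µg/L, with no overlap and a change of 0.51 ± 0.062. The lid subunit psmd11b rose by 0.50 ± 0.064, the base ATPase psmc6 by 0.42 ± 0.054, and the activator psme3 by 0.57 ± 0.060. These calls rested on the narrow spread of the 6 libraries, and in the fit of all 12 libraries 2 proteasome genes were higher and 0 lower. No call remained there for psmd4b, psmc6, psmb5 or psma3.

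**Figure D3:**
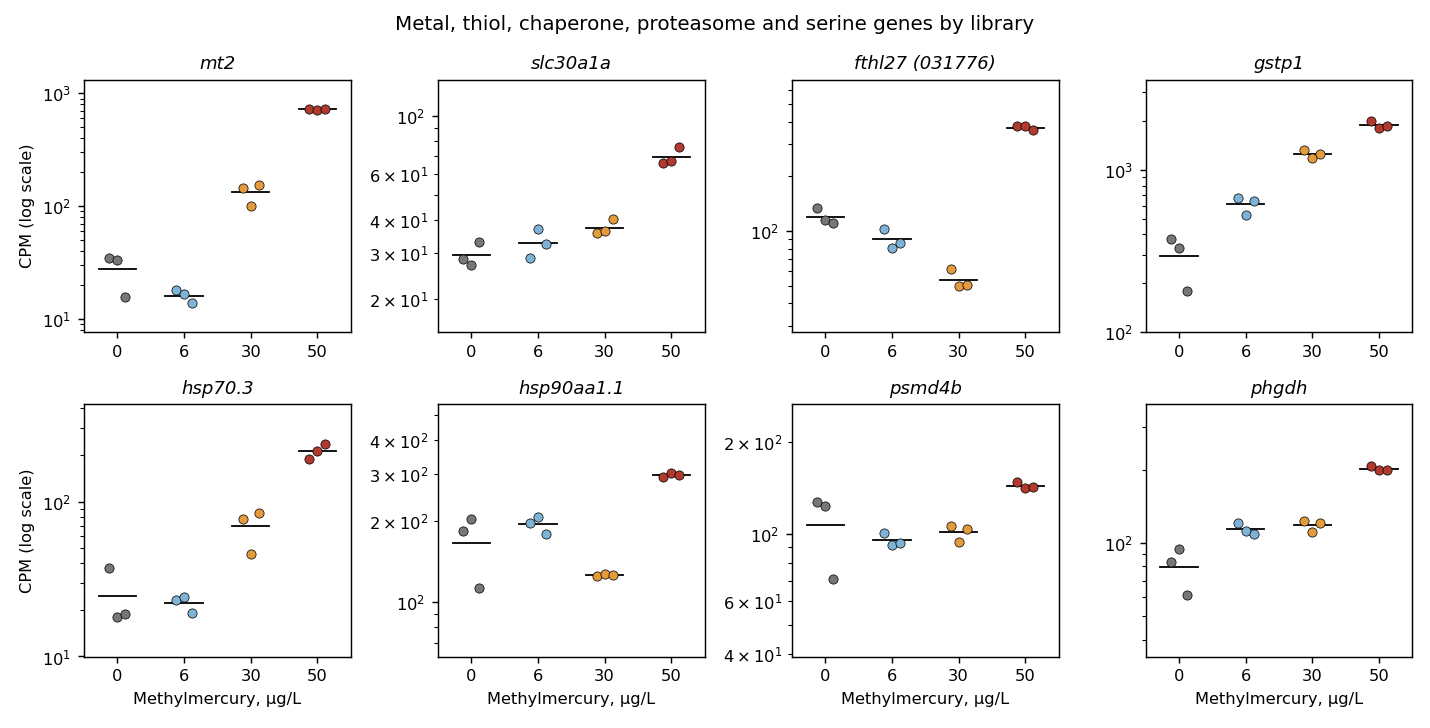
CPM on log axes for 8 genes by methylmercury dose, 1 point a library and a bar at the group mean of 3. The MeHg50 points of mt2, slc30a1a, fthl27, gstp1, hsp70.3, hsp90aa1.1, psmd4b and phgdh all lie above the MeHg30 points, while fthl27 and hsp90aa1.1 at 30 µg/L lie below the control mean.

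The response to unfolded protein in the endoplasmic reticulum had more higher than lower genes. It has sensor proteins in the membrane, chaperones within the organelle, and the transcription factor ATF4 that drives amino acid supply. Of 21 ATF4-branch genes, 12 were higher (57.1%) and 0 lower, with a median of 0.33. The ATF4 gene atf4b rose by 0.56 ± 0.060, asparagine synthetase asns by 0.56 ± 0.068, and the stress cofactor nupr1b by 1.88 ± 0.14. For nupr1b the levels were 4.197, 3.72 and 5.38 CPM at 30 µg/L and 15.4, 15.5 and 18.2 CPM at 50 µg/L, but 22.9, 23.0 and 32.5 CPM in the controls and 21.4, 17.0 and 15.7 CPM at 6 µg/L, so 30 µg/L was the lowest of the 4 groups. The pro-death factor ddit3 rose by 0.39 ± 0.084, and atf3, at 26.3, 18.4 and 23.9 CPM at 30 µg/L and 24.4, 30.5 and 28.1 CPM at 50 µg/L, overlapped between the doses (0.27 ± 0.11, adjusted p = 0.084). Fitted with the other 6 libraries, ddit3 lost the call.

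Among chaperones and sensors of the organelle, 6 of 25 were higher and 3 lower, the only lower genes of the response, which numbered 5 without MeHg30 replicate 2. The sensor ern1 (Ire1) had 55.3, 60.4 and 56.0 CPM at 30 µg/L and 20.2, 21.8 and 21.5 CPM at 50 µg/L, a fall of 1.43 (−1.43 ± 0.072, adjusted p = 1.1e-09) to near the level of 15.6, 14.1 and 25.5 CPM in the controls and 19.2, 20.5 and 20.9 CPM at 6 µg/L. Calreticulin calr, a calcium-binding chaperone, had 274, 252 and 245 CPM at 30 µg/L and 127, 133 and 123 CPM at 50 µg/L and changed by −1.01 ± 0.059. The Hsp40 gene dnajb11 and the secreted factor manf rose by 0.64 ± 0.060 and 0.39 ± 0.068. When 12 libraries were fitted, 7 genes of the whole response were higher and 2 lower. There the call of manf was lost.

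Amino acid transport and serine synthesis genes rose, 19 of 31 (61.3%), while 3 were lower and the median was 0.30. Phosphoglycerate dehydrogenase phgdh, the first enzyme of serine synthesis, had 123, 111 and 121 CPM at 30 µg/L and 206, 198 and 199.95 CPM at 50 µg/L, a rise of 0.77 ± 0.058 without overlap. Methionine adenosyltransferase mat2aa, which makes S-adenosylmethionine, rose by 0.88 ± 0.060, with group means of 159, 217, 275 and 505 CPM at 0, 6, 30 and 50 µg/L. The neutral amino acid transporter slc43a1a rose by 0.60 ± 0.062. Under the 12-library fit 4 of the list were higher and 0 lower. 

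Single genes linked to growth control rose, and single genes of cell death went both ways. The ubiquitin ligase mdm2 rose by 0.62 ± 0.093, the cyclin ccng1 by 0.50 ± 0.060 and the ribosomal protein-like rps27l by 1.02 ± 0.11. The cell cycle inhibitor cdkn1a had 18.7, 12.9 and 19.4 CPM at 30 µg/L and 27.04, 26.4 and 29.3 CPM at 50 µg/L, a rise of 0.69 ± 0.12 (adjusted p = 0.00037) without overlap. The executioner caspase casp3b had 35.5, 37.3 and 37.7 CPM at 30 µg/L and 17.2, 20.5 and 17.7 CPM at 50 µg/L and fell (−0.99 ± 0.083), the survival factor bcl2b fell (−0.69 ± 0.16), and the caspase activator apaf1 rose by 0.30 ± 0.064. The calls of apaf1 and ccng1 were lost in the fit of all 12 libraries.

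Photoreceptor genes fell in every role tested. Photoreceptors catch light with opsins in stacked outer segment discs, pass it through transducin and a phosphodiesterase to a cyclic nucleotide-gated channel, and end the signal with arrestins and opsin kinases. In the zebrafish larva cones mature before rods. Of 73 genes in the list 48 were tested, 0 were higher and 38 lower (79.2%), with a median log2 fold change of −0.97. In the fit of all 12 libraries 0 were higher and 28 lower.

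Of 10 visual opsins in the table, 5 passed the expression filter, each of which was lower at 50 µg/L, with a median of −3.00. The ultraviolet cone opsin opn1sw1 (ENSDARG00000045677, chromosome 4, 13577665 to 13580348, reverse strand) had 16.4, 31.6 and 20.1 CPM at 30 µg/L and 0.927, 2.07 and 1.78 CPM at 50 µg/L. All values at 50 µg/L were far below the lowest at 30 µg/L, a change of −3.82 ± 0.26 (edgeR adjusted p = 4.2e-08). The green cone opsin opn1mw1 (ENSDARG00000097008, chromosome 6, 41181869 to 41183823, forward strand) had 7.98, 17.3 and 8.17 CPM at 30 µg/L and 0.382, 0.288 and 0.356 CPM at 50 µg/L, close to absence at 50 µg/L, and changed by −4.97 ± 0.39. The blue cone opsin opn1sw2 (ENSDARG00000017274, chromosome 11, 25459697 to 25475403, forward strand) had 8.30, 15.2 and 9.90 CPM at 30 µg/L and 1.199, 1.44 and 1.47 CPM at 50 µg/L and changed by −3.00 ± 0.24. The red cone opsin opn1lw2 (ENSDARG00000044861, chromosome 11, 25481046 to 25483206, forward strand) had 44.0, 46.8 and 42.9 CPM at 30 µg/L and 4.74, 7.31 and 9.50 CPM at 50 µg/L, and its change was −2.62 ± 0.15. No 50 µg/L library reached any 30 µg/L library for these 4 genes. The rod opsin rho (ENSDARG00000002193, chromosome 8, 54076195 to 54077740, reverse strand) had 18.4, 28.7 and 25.8 CPM at 30 µg/L and 5.61, 10.4 and 8.68 CPM at 50 µg/L and changed by −1.55 ± 0.18, also without overlap. For the 4 cone opsins the 30 µg/L levels were below every control library, and the controls had 775, 609 and 662 CPM of opn1sw1. For rho the controls had 12.02, 17.2 and 261 CPM, so control replicate 3 stood far above the others, and the 50 µg/L levels were the lowest of the series. With all 12 libraries fitted, rho lost the call.

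In the transduction cascade, 11 of 15 were lower and 0 higher, with a median of −1.15. The cone transducin gamma subunit gngt2b had 6.11, 11.9 and 7.62 CPM at 30 µg/L and 0.545, 0.403 and 0.406 CPM at 50 µg/L, a change of −4.205 ± 0.31. The cone beta subunit gnb3b had 9.70, 13.1 and 11.2 CPM at 30 µg/L and 1.14, 2.13 and 2.18 CPM at 50 µg/L and changed by −2.62 ± 0.20, and the cone alpha subunit gnat2 had 11.8, 14.4 and 10.31 CPM at 30 µg/L and 2.56, 3.22 and 2.79 CPM at 50 µg/L and changed by −2.08 ± 0.16. All libraries at 50 µg/L were the lower ones for these 3 subunits. The rod alpha subunit gnat1 changed by −1.01 ± 0.21 and the second beta gene gnb3a by −0.93 ± 0.082. Of the shut-off genes, 9 of 10 were lower. Cone arrestin arr3a, which caps activated opsin, had 38.8, 43.9 and 41.7 CPM at 30 µg/L and 10.303, 12.5 and 15.6 CPM at 50 µg/L, a change of −1.68 ± 0.11 without overlap. The cone opsin kinase grk7a changed by −1.72 ± 0.25 and the calcium sensors rcvrn2 and rcvrn3 by −0.70 ± 0.10 and −1.49 ± 0.17.

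**Figure D4:**
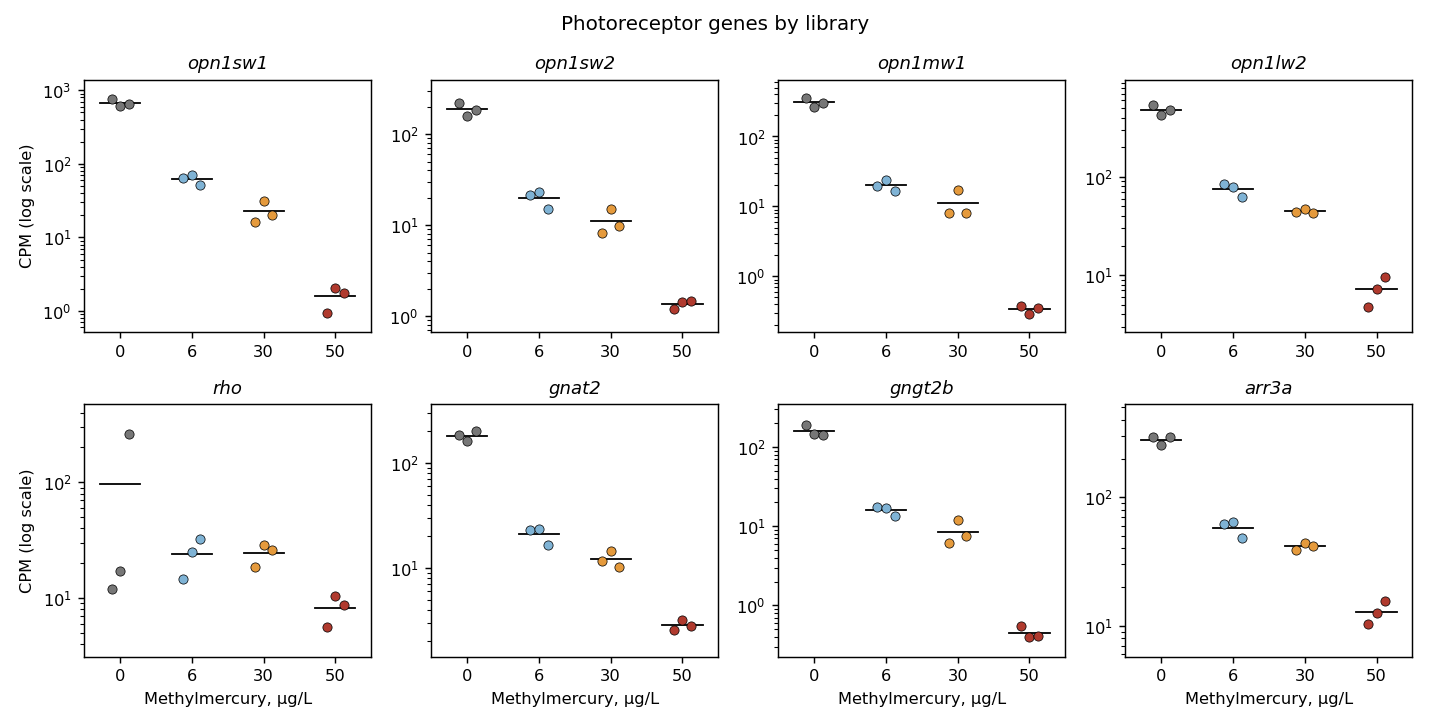
CPM on log axes for the 4 cone opsins, rod opsin, gnat2, gngt2b and arr3a by methylmercury dose, 1 point a library and a bar at the group mean of 3. In each panel the 3 points at 50 µg/L are the lowest of the 12, and for opn1mw1 they average 0.342 CPM.

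Each of the 7 outer segment and synapse genes tested was lower. The disc rim proteins prph2a and prph2b changed by −2.09 ± 0.30 and −2.94 ± 0.37, the adhesion protein retinoschisin rs1a by −1.40 ± 0.12, and the synaptotagmin syt5b by −0.85 ± 0.12. Changes were smaller among transcription factors of photoreceptor fate, of which 6 of 11 were lower, with a median of −0.24. The proneural factor neurod1 had 116, 121 and 119.6 CPM at 30 µg/L and 87.8, 89.9 and 95.7 CPM at 50 µg/L and changed by −0.38 ± 0.059. The factor otx5, related to crx, changed by −0.43 ± 0.11 and the thyroid hormone receptor thrb, needed for red cones in zebrafish, by −0.24 ± 0.063, a call that was lost without MeHg50 replicate 2 (−0.21, adjusted p = 0.051). The homeobox gene rx2 changed by −0.45 ± 0.13 and lost its call without MeHg50 replicate 1 (−0.37, adjusted p = 0.081). Fitted with the other 6 libraries, thrb, rx2 and otx5 lost the call.

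Inner retinal transcription factors were lower in greater share than all genes, 11 of 18 (61.1%), with 1 higher and a median of −0.26. The eye field factor lhx2b changed by −0.95 ± 0.12, vsx1 of bipolar cells by −0.47 ± 0.078, and prox1a, which marks horizontal cells and also liver and lymph vessels, by −0.47 ± 0.068. The count of lower factors was 6 without MeHg30 replicate 2, MeHg50 replicate 1 or MeHg50 replicate 2, and 2 in the fit of all 12 libraries. In the visual cycle, which renews the light-absorbing retinoid, the photoreceptor matrix carrier rbp3 changed by −0.67 ± 0.16 and the retinoid carrier rlbp1a by −0.46 ± 0.12. The dehydrogenase rdh5 and the retinol receptor stra6 instead rose by 0.61 ± 0.13 and 0.29 ± 0.062. Of 23 lens genes 3 were higher and 3 lower. The beaded filament gene bfsp2 rose by 0.52 ± 0.080, and the crystallin crybb1l3 changed by −0.68 ± 0.17. With 12 libraries fitted, 1 visual cycle gene was higher and 1 lens gene, crybb1l3, lower. Not called in the 12-library fit were bfsp2, rlbp1a, stra6, prox1a and rbp3.

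Genes of synaptic vesicle release fell. Of 35 tested, 22 were lower (62.9%), 1 was higher and the median was −0.32. The complexin cplx2 on ENSDARG00000061918, which clamps vesicle fusion, had 104, 105 and 95.1 CPM at 30 µg/L and 59.3, 52.8 and 47.7 CPM at 50 µg/L, a change of −0.92 ± 0.077 without overlap. The vesicle protein sv2ba had 13.2, 11.06 and 11.95 CPM at 30 µg/L and 2.73, 4.32 and 3.91 CPM at 50 µg/L and changed by −1.72 ± 0.15. Syntaxin-binding stxbp1b changed by −1.01 ± 0.099 and synaptophysin sypb by −0.72 ± 0.074. Among the lower genes with the smallest p of all genes were dnajc5ab, a chaperone of synaptic vesicles, with 142, 148 and 139.7 CPM at 30 µg/L and 75.4, 76.9 and 76.9 CPM at 50 µg/L and a change of −0.90 ± 0.057, and atp6v0cb, a subunit of the proton pump that fills vesicles, with 153, 165 and 156 CPM at 30 µg/L and 84.1, 81.0 and 82.1 CPM at 50 µg/L and a change of −0.94 ± 0.058. Both were picked by smallest p from genes without overlap between the doses, so their lack of overlap was a condition of choice. When 12 libraries were fitted, 6 synapse genes were lower and 0 higher. 

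Of 35 receptors of glutamate, GABA, glycine and acetylcholine, 13 were lower (37.1%), 0 were higher, and the median was −0.28. The AMPA receptor gria3a had 34.7, 28.7 and 37.0 CPM at 30 µg/L and 19.5, 18.4 and 16.7 CPM at 50 µg/L and changed by −0.88 ± 0.099. The obligatory NMDA receptor subunit genes grin1a and grin1b changed by −0.46 ± 0.061 and −0.36 ± 0.067, and the glycine receptor glra1 by −0.44 ± 0.072. Genes of monoamine and acetylcholine synthesis and transport had 3 higher and 0 lower of 21. Choline acetyltransferase chata rose by 0.33 ± 0.074, and aanat2, which makes the melatonin precursor in the pineal organ, rose by 0.89 ± 0.22, with 2.47, 1.38 and 2.098 CPM at 30 µg/L and 3.65, 3.34 and 4.11 CPM at 50 µg/L. The third was monoamine oxidase mao (0.23 ± 0.080), whose call was lost in DESeq2 (adjusted p = 0.08) and without any of 4 single libraries (0.18 to 0.24). Under the 12-library fit 1 receptor was lower and 1 monoamine or acetylcholine gene higher. There the calls of glra1, chata, mao, grin1b, grin1a and gria3a were lost.

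Progenitor and early neuron genes had 18 lower (37.5%) and 1 higher of 48, with a median of −0.13. The Notch target her4.2 on gene ID ENSDARG00000056729, chromosome 23, 21469203 to 21471022, reverse strand had 12.4, 16.3 and 13.5 CPM at 30 µg/L and 4.96, 6.50 and 6.04 CPM at 50 µg/L and changed by −1.26 ± 0.14, and its copy ENSDARG00000094426 changed by −0.72 ± 0.11. The gene her4.3 had 8.63, 9.28 and 8.44 CPM at 30 µg/L and 1.09, 1.38 and 1.57 CPM at 50 µg/L and changed by −2.69 ± 0.18. It overlaps ENSDARG00000094426 in position on the same strand. Reads of these near-identical or overlapping genes on chromosome 23 may be shared, so their single values are uncertain. The Notch ligand dla changed by −0.38 ± 0.059, and stmn1b, a tubulin regulator of young neurons, by −0.40 ± 0.056. Of 25 myelin and glial genes 2 were higher and 6 lower. Radial glial gfap changed by −0.29 ± 0.053, the myelin protein mag by −0.64 ± 0.16 and plp1b by −0.66 ± 0.17. For plp1a the change of −0.60 ± 0.14 was −0.34 without MeHg30 replicate 2, and its call was lost in DESeq2 and with robust estimation. Once the other 6 libraries entered, 4 progenitor genes and 1 of the myelin and glial genes were lower. Lost there were the calls of gfap, stmn1b, plp1a and mag.

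Cell cycle genes leaned upward by small amounts. Of 92 tested, 24 were higher (26.1%, against 15% of all genes) and 9 lower (9.78%, against 14.8%). The median was 0.11, with 72 log2 fold changes positive and 20 negative. In DNA replication 15 of 42 were higher and 6 lower, and 35 log2 fold changes were positive. Yet 3 of the 4 genes of smallest p were lower, so the replication genes named here do not stand for the list. Ribonucleotide reductase subunit rrm2 on ENSDARG00000078069 changed by −0.63 ± 0.062, the helicase factors gins4 and mcm5 by −0.79 ± 0.099 and −0.38 ± 0.058, and the chromatin assembly factor chaf1a rose by 0.33 ± 0.054. The means of mcm5 over the 4 groups were 91.9, 120.0, 180.2 and 138 CPM. Of 50 mitosis genes 9 were higher (18%) and 3 lower (6%), the higher share near that of all genes. The checkpoint kinase ttk, the kinetochore gene spc24 and the motor kif2c rose by 0.39 ± 0.062, 0.43 ± 0.081 and 0.25 ± 0.061, and the cohesin factor cdca5 fell (−0.43 ± 0.078). In the fit of all 12 libraries 0 cell cycle genes were higher and 3 lower. No call remained there for ttk, cdca5, chaf1a, kif2c or spc24.

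Few ribosomal and respiratory chain genes were called, and larger shares were called in glycolysis and cholesterol synthesis. Of 74 ribosomal protein genes the largest falls named were rpl3 at −0.37 ± 0.048 and rpl12 at −0.22 ± 0.050. Of 56 nuclear respiratory chain genes 3 were higher and 7 lower, and the complex I genes ndufb2 and ndufs8a changed by 0.47 ± 0.066 and −0.35 ± 0.059. Counts for both lists moved by more than 1.5 times when single libraries were left out, with 2 to 5 respiratory and 2 to 5 ribosomal genes then lower and 1 to 5 and 1 to 7 higher. Of 13 protein genes of mitochondrial DNA 0 were higher and 3 lower, mt-co3 by −0.31 ± 0.043, mt-nd4 by −0.24 ± 0.054 and mt-cyb by −0.17 ± 0.048, the last losing its call in limma and without MeHg30 replicate 1, MeHg50 replicate 2 or MeHg50 replicate 3 (adjusted p = 0.063, 0.077 and 0.068). In glycolysis and gluconeogenesis 6 were higher (15.8%) and 10 lower (26.3%) of 38, against 15% and 14.8% of all genes. The median was −0.065, so the genes named here, picked by smallest p and all higher, do not stand for the list. Pyruvate kinase pklr had 30.0, 30.5 and 32.8 CPM at 30 µg/L and 72.7, 72.8 and 70.5 CPM at 50 µg/L, a rise of 1.21 ± 0.066 without overlap, and lactate dehydrogenase ldha, and pck1 and fbp1a of glucose synthesis, rose by 0.45 ± 0.055, 0.74 ± 0.11 and 0.47 ± 0.075. Of 23 cholesterol synthesis genes 8 were higher and 3 lower. The lipoprotein receptor ldlra, the synthase hmgcs1 and the isomerase ebp rose by 0.86 ± 0.11, 0.47 ± 0.075 and 0.81 ± 0.14, and idi1 changed by −0.48 ± 0.057. With all 12 libraries fitted, no ribosomal, respiratory or mitochondrial gene of these lists was called, 2 glycolysis genes were higher and 0 lower, and 1 cholesterol gene was higher and 1 lower. This fit ended the calls of rpl3, rpl12, fbp1a, ndufb2, ebp, ndufs8a, mt-co3, mt-nd4, mt-cyb, ldha and hmgcs1.

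Skeletal muscle genes were lower in greater share than all genes. Of 72 tested, 32 were lower (44.4%) and 7 higher, with a median of −0.15. Of myosin heavy chains 7 of 12 were lower and 2 higher. The slow myosin smyhc1 changed by −0.41 ± 0.056, the fast myosin myhz1.1 on ENSDARG00000067990 by −0.41 ± 0.061, and myhb by −0.60 ± 0.077. Against them myhc4 had 20.3, 31.1 and 33.0 CPM at 30 µg/L and 85.6, 93.6 and 86.4 CPM at 50 µg/L, a rise of 1.66 ± 0.12 without overlap, with group means of 86.7, 62.1, 28.1 and 88.5 CPM at 0, 6, 30 and 50 µg/L. Of thin filament, light chain and metabolic genes 24 of 49 were lower, the skeletal actin acta1a by −0.73 ± 0.067 and the fast troponin tnni2a.2 by −1.38 ± 0.14, while desmin desma rose by 0.58 ± 0.054. Fitted with the other 6 libraries, myhz1.1 lost the call.

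The symbol actc1a, a cardiac-type actin also made by embryonic muscle, stands on 2 gene IDs that went opposite ways. The one on chromosome 19 (ENSDARG00000076126, chromosome 19, 47549568 to 47555956, reverse strand) had 119, 143 and 134 CPM at 30 µg/L and 5.40, 6.62 and 7.87 CPM at 50 µg/L, and changed by −4.31 ± 0.11 (adjusted p = 5.1e-13). Its other levels were 7.45, 9.34 and 95.1 CPM in the controls and 5.80, 6.54 and 7.27 CPM at 6 µg/L, so the 50 µg/L level was near those of the 6 µg/L libraries and of the lower pair of controls. The other ID, chosen after its value was seen (ENSDARG00000042535, chromosome 20, 29476852 to 29483514, reverse strand), rose by 0.41 ± 0.068. Of the muscle regulatory factors 3 of 11 were higher and 1 was lower. The factor myf5 rose by 0.63 ± 0.13 and mef2ca by 0.26 ± 0.065. Of 18 heart genes 0 were higher and 2 lower, the atrial light chain myl4 by −0.38 ± 0.097 and the myosin myh7l by −0.24 ± 0.064. When 12 libraries were fitted, 2 muscle genes were higher and 9 lower, and 0 heart genes were called. Not called in that fit were myf5, myl4, mef2ca and myh7l.

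Skeletal matrix genes fell more than they rose. Of 23 cartilage genes 9 were lower and 1 higher. Matrilin matn1 of cartilage matrix had 154, 173 and 157 CPM at 30 µg/L and 77.0, 88.4 and 87.0 CPM at 50 µg/L and changed by −0.93 ± 0.068, following 501, 506 and 626 CPM in the controls. The aggrecans acana and acanb changed by −0.44 ± 0.096 and −0.52 ± 0.11. In bone and tooth 4 of 18 were higher and 6 lower. The tooth matrix gene scpp5 had 2.29, 1.72 and 2.098 CPM at 30 µg/L and 0, 0.230 and 0.254 CPM at 50 µg/L and changed by −3.60 ± 0.47, with group means of 10.4, 0.442, 2.03 and 0.161 CPM from the controls upward. The hypertrophic collagen col10a1a changed by −0.41 ± 0.065. Of 25 collagens 0 were higher and 8 lower, and the lower count was 14 without MeHg30 replicate 1, 4 without MeHg30 replicate 3 or MeHg50 replicate 1, and 5 without MeHg50 replicate 3. The type I collagen genes col1a1a, col1a1b and col1a2 changed by −0.40 ± 0.11, −0.59 ± 0.13 and −0.55 ± 0.12. Without MeHg30 replicate 3, in which they were highest, these values were −0.21, −0.36 and −0.33, and DESeq2 did not call the 3 genes (adjusted p = 0.13, 0.06 and 0.065). The collagen col6a2 changed by −0.41 ± 0.058. Under the 12-library fit 1 cartilage gene was lower, 2 bone and tooth genes were higher and 2 lower, and no collagen was called. There the calls of col1a1a, col1a2, col1a1b, acana, acanb and col6a2 were lost.

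In the skin, 13 of 30 epidermal genes were lower (43.3%) and 2 higher, or 4 higher without MeHg30 replicate 1. The keratin cyt1 (ENSDARG00000092947, chromosome 19, 5362420 to 5364649, reverse strand) had 1422, 1509 and 1383 CPM at 30 µg/L and 491, 521 and 471 CPM at 50 µg/L, a change of −1.54 ± 0.053 (adjusted p = 2e-11), and in the other groups 1941, 1517 and 916 CPM in the controls and 1268, 984 and 1181 CPM at 6 µg/L. All 3 libraries at 50 µg/L were below the lowest of the other 9. The keratin krt91 changed by −0.50 ± 0.048, and the tight junction claudins cldne and cldnf by −0.76 ± 0.057 and −1.87 ± 0.12. Of 22 genes of skin ionocytes, which take up and excrete salts, 1 was higher and 6 lower. The chloride channel clcn2c had 13.6, 11.3 and 13.5 CPM at 30 µg/L and 5.83, 5.58 and 5.49 CPM at 50 µg/L and changed by −1.18 ± 0.12, and the sodium-chloride cotransporter slc12a10.2 by −0.78 ± 0.14. Of 17 hair cell and otolith genes 1 was higher, pvalb9 by 0.38 ± 0.077, and 2 were lower, among them the otolith matrix gene stm (−0.36 ± 0.066). Once the other 6 libraries entered, 4 epidermal, 2 ionocyte and 1 of the hair cell and otolith genes were lower, and 0 were higher. Lost there were the calls of krt91 and pvalb9.

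Digestive organs gave mixed changes. Of 27 exocrine pancreas genes 11 passed the filter, 2 were higher and 4 lower, and 2 were lower without MeHg30 replicate 1, MeHg50 replicate 1 or MeHg50 replicate 2. The elastases ela2 and ela2l changed by −1.96 ± 0.41 and −1.72 ± 0.32 at levels of at most 2.58 CPM in the 6 libraries, with 1.68, 2.58 and 1.78 CPM at 30 µg/L and 0.654, 0.690 and 0.457 CPM at 50 µg/L for ela2l. The carboxypeptidase cpa5 had 10.17, 9.05 and 7.57 CPM at 30 µg/L and 21.0, 18.5 and 21.2 CPM at 50 µg/L and rose by 1.19 ± 0.11, and the trypsin prss59.1 rose by 1.42 ± 0.30. The trypsin prss59.2, at 0.700, 1.604 and 1.28 CPM at 30 µg/L and 1.47, 0.978 and 1.27 CPM at 50 µg/L, overlapped between the doses (0.08 ± 0.33, adjusted p = 0.88), against controls at 16.3, 11.9 and 10.9 CPM. Of 15 islet genes 2 were higher (13.3%) and 4 lower (26.7%), against 15% and 14.8% of all genes, with a median of −0.073. Glucagon gcga, 1 of the higher ones, rose by 1.18 ± 0.11 and does not stand for the list. The lower islet genes numbered 2 without MeHg30 replicate 1, MeHg30 replicate 2, MeHg50 replicate 1 or MeHg50 replicate 3. In the intestine 9 of 19 were lower (47.4%) and 1 was higher. The higher one was the brush border peptidase anpepb (1.35 ± 0.15), and the intestinal factor cdx1b and the apolipoprotein apoa4a were among the lower ones (−1.22 ± 0.14 and −0.72 ± 0.090). In the fit of all 12 libraries 2 exocrine genes were higher and 2 lower, and of the islet and of the intestinal genes 1 was higher and 1 lower. No call remained there for apoa4a or cdx1b.

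Liver genes went both ways, 13 higher and 11 lower of 40. The ferroxidase ceruloplasmin cp, a copper protein of plasma, had 31.3, 32.4 and 30.2 CPM at 30 µg/L and 58.5, 67.4 and 70.4 CPM at 50 µg/L, a rise of 1.07 ± 0.077 without overlap. Fibrinogen genes fga and fgb rose by 0.70 ± 0.062 and 0.72 ± 0.055, and the retinol-binding rbp2b by 1.65 ± 0.088, with 12.1, 12.2 and 10.4 CPM at 30 µg/L and 36.5, 34.5 and 37.3 CPM at 50 µg/L, after 57.5, 45.9 and 39.08 CPM in the controls. The liver fatty acid-binding fabp10a had 2.75, 3.15 and 3.102 CPM at 30 µg/L and 1.58, 2.24 and 1.63 CPM at 50 µg/L and changed by −0.72 ± 0.22 (adjusted p = 0.022), a call lost without any of 4 single libraries (−0.63 to −0.69). Of complement and coagulation genes 10 of 33 were higher (30.3%) and 1 was lower, or 4 lower without MeHg30 replicate 2. The terminal complement gene c6 on ENSDARG00000057113 rose by 0.94 ± 0.10, c8g by 0.75 ± 0.11 and the factor H-like cfhl4 by 0.65 ± 0.084, while antithrombin serpinc1 changed by −0.61 ± 0.062. Of 8 yolk protein genes only 2 passed the filter, vtg1 and vtg7, and both rose, by 1.04 ± 0.16 and 1.33 ± 0.15. The median of the yolk protein list ran from 0.14 to 1.34 over the settings run, so these 2 do not stand for the family. Of 38 cytochrome P450 genes 12 were higher (31.6%) and 4 lower, or 2 lower without MeHg30 replicate 3 or MeHg50 replicate 2. Changes in that list ran from −1.74 to 5.37, so the P450 genes named, all higher, do not stand for it. The aryl hydrocarbon receptor target cyp1a had 17.0, 23.4 and 21.1 CPM at 30 µg/L and 35.6, 43.6 and 59.9 CPM at 50 µg/L and rose by 1.19 ± 0.15, and cyp2aa4 and cyp2aa8 rose by 1.13 ± 0.13 and 1.64 ± 0.14. With all 12 libraries fitted, 4 liver genes were higher and 2 lower, of the complement and coagulation genes 2 and 0, and of the P450 genes 7 and 2. This fit ended the calls of c8g, fabp10a, serpinc1, vtg1, vtg7 and cfhl4.

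Inflammation and myeloid genes were higher in greater share than all genes. Of 46 inflammation and wound response genes 19 were higher (41.3%) and 2 lower, with a median of 0.41. The matrix metalloproteinase mmp9, made by neutrophils and wounded skin, had 34.05, 20.2 and 34.4 CPM at 30 µg/L and 51.3, 53.3 and 64.0 CPM at 50 µg/L, a rise of 0.92 ± 0.14 (adjusted p = 0.00015) without overlap. The chemokine cxcl12b and the protease inhibitor timp2b rose by 0.84 ± 0.065 and 0.88 ± 0.096, and mmp13a rose on each of its 2 gene IDs, by 0.94 ± 0.13 and 1.49 ± 0.16. The cytokine il11a had 0.140, 0.172 and 0.0456 CPM at 30 µg/L and 2.56, 2.76 and 2.18 CPM at 50 µg/L, a rise of 4.37 ± 0.41 from a level of a few reads. By contrast irg1l, an enzyme of macrophage and skin inflammation, had 22.2, 12.9 and 19.1 CPM at 30 µg/L and 16.8, 14.7 and 18.3 CPM at 50 µg/L and overlapped (−0.13 ± 0.15, adjusted p = 0.55), and its other levels were 9.49, 10.8 and 22.8 CPM in the controls and 118, 113 and 120.0 CPM at 6 µg/L. Of 41 macrophage and neutrophil genes 14 were higher (34.1%) and 1 was lower, with the galectin lgals9l1 up by 0.84 ± 0.092. Fitted with the other 6 libraries, 8 inflammation genes were higher and 1 lower, and of the myeloid genes 5 and 0. 

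Interferon response genes had 10 higher (35.7%) and 3 lower of 28 tested, out of 59 in the table. The signalling factor irf9 rose by 0.67 ± 0.11. The class I light chain b2ml and the class I gene mhc1zba changed by −0.70 ± 0.086 and −1.42 ± 0.23, and for mhc1zba the means were 44.3, 1.48, 9.55 and 3.61 CPM over the 4 groups. Class I gene mhc1uba had 0, 0.0573 and 0.0456 CPM at 30 µg/L and 3.16, 4.14 and 3.71 CPM at 50 µg/L. It rested on 2 reads at 30 µg/L against 203 at 50 µg/L, a ratio of reads scaled for library total of 111 with a 95% interval of 30.4 to 926 that covers counting error only, and its controls had 4.92, 4.44 and 0.626 CPM. Among erythroid genes 14 of 35 were higher (40%) and 6 lower, or 3 lower without MeHg50 replicate 3. The first enzyme of red cell haem synthesis, alas2, had 124, 123 and 130.2 CPM at 30 µg/L and 193, 194 and 192 CPM at 50 µg/L, a rise of 0.62 ± 0.054 without overlap. The globins hbae1.1 and hbbe3 rose by 1.47 ± 0.11 and 1.14 ± 0.11, and the globin hbae3 changed by −0.39 ± 0.048. Their mean FPKM at 30 µg/L was 18.03, 78.4 and 2142, so the most abundant of these globins was the one that fell. Of 27 endothelial genes 6 were higher and 1 was lower, with the scavenger receptor stab2 and the transcription factor fli1a up by 0.59 ± 0.093 and 0.42 ± 0.068 and the claudin cldn5b changed by −0.46 ± 0.079. When 12 libraries were fitted, 5 interferon genes were higher and 2 lower, 1 erythroid gene was higher, and 2 endothelial genes were. Not called in that fit were cldn5b, hbbe3, alas2, fli1a and hbae3.

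A change of at least 2 on the log2 scale was called for 219 genes (1.12% of those tested). For several of the largest rises among genes without a clone name, 30 µg/L had the lowest group mean. The P450 gene cyp2p9 (ENSDARG00000022631, chromosome 20, 25581627 to 25584869, forward strand) had 0.0933, 0.115 and 0.137 CPM at 30 µg/L and 5.18, 4.89 and 4.93 CPM at 50 µg/L, a rise of 5.37 ± 0.32. Its other levels were 4.64, 3.83 and 4.07 CPM in the controls and 4.80, 3.09 and 2.81 CPM at 6 µg/L, so it was 30 µg/L that stood low. The 30 µg/L level was also the lowest for lgals2b, a galectin, with group means of 99.2, 56.2, 28.8 and 95.2 CPM at 0, 6, 30 and 50 µg/L and a rise of 1.73 ± 0.064. The leukocyte chemotaxin gene lect2l had means of 6.16, 9.57, 0.339 and 3.76 CPM, and NPC2 on ENSDARG00000096979 of 5.96, 3.11, 1.202 and 6.94 CPM, with rises of 3.49 ± 0.39 and 2.497 ± 0.22. A separate gene ID with the symbol npc2 (ENSDARG00000090912) rose by 0.33 and lost the call in the fit of all 12 libraries. The extracellular matrix gene MFAP4 on ENSDARG00000088745, 1 of 3 IDs with that symbol, had means of 5.38, 16.2, 1.29 and 8.10 CPM and rose by 2.68 ± 0.23.

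For other genes 50 µg/L had the highest group mean. The short-chain dehydrogenase sdr42e2 had 1.54, 1.15 and 1.78 CPM at 30 µg/L and 15.8, 16.2 and 14.8 CPM at 50 µg/L, above all 9 other libraries, and rose by 3.37 ± 0.15. The hormone receptor mchr1b had means of 1.77, 0.617, 0.315 and 5.39 CPM at 0, 6, 30 and 50 µg/L and rose by 4.08 ± 0.27, and the carotenoid oxygenase-like bco1l had means of 0.799, 0.515, 0.588 and 4.29 CPM and rose by 2.82 ± 0.27. The dehydrogenase-like dhrs13l1 and the DNA helicase ddx11 rose by 1.46 ± 0.062 and 1.63 ± 0.083, with means of 23.3, 43.8, 46.6 and 128 CPM and 7.64, 11.9, 14.2 and 43.9 CPM. The zinc finger gene znf977 on ENSDARG00000087070 had means of 1.53, 2.43, 0.385 and 4.75 CPM and rose by 3.58 ± 0.31. Of the ms4a family of membrane proteins, ms4a17a.8 had means of 0.449, 4.39, 0.682 and 4.91 CPM and ms4a17a.11 of 38.9, 28.6, 19.5 and 50.4 CPM, with rises of 2.85 ± 0.24 and 1.37 ± 0.069. The 6 and 50 µg/L libraries overlapped for ms4a17a.8. 

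Among the falls, the calpain protease capn2l had 28.4, 35.5 and 31.5 CPM at 30 µg/L and 5.18, 3.80 and 3.00 CPM at 50 µg/L, a change of −2.99 ± 0.14. Yet its controls had 0.205, 0.561 and 45.7 CPM, so control replicate 3 was as high as 30 µg/L. The TRIM family gene btr21 on ENSDARG00000100450, chromosome 19, 3747060 to 3759142, reverse strand had 5.32, 4.07 and 6.25 CPM at 30 µg/L and 0.109, 0 and 0.102 CPM at 50 µg/L and changed by −6.06 ± 0.42, and its other levels were 7.79, 7.15 and 0.894 CPM in the controls and 0, 0 and 0.550 CPM at 6 µg/L. The reductase ptgr1, which inactivates prostaglandins and a leukotriene, had means of 90.1, 41.2, 118 and 37.7 CPM at 0, 6, 30 and 50 µg/L and changed by −1.64 ± 0.080. Sepiapterin reductase spra, of tetrahydrobiopterin synthesis, had means of 6.68, 6.64, 20.9 and 6.42 CPM and changed by −1.70 ± 0.099, and the sugar transporter slc5a9 had means of 2.48, 1.67, 6.95 and 1.15 CPM and changed by −2.60 ± 0.20. The clustered protocadherin pcdh1gb9 changed by −3.03 ± 0.23, and its called neighbours pcdh1g13 and pcdh1g14 on chromosome 10 by −2.64 and −3.84. Under the 12-library fit capn2l lost the call.

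**Figure D5:**
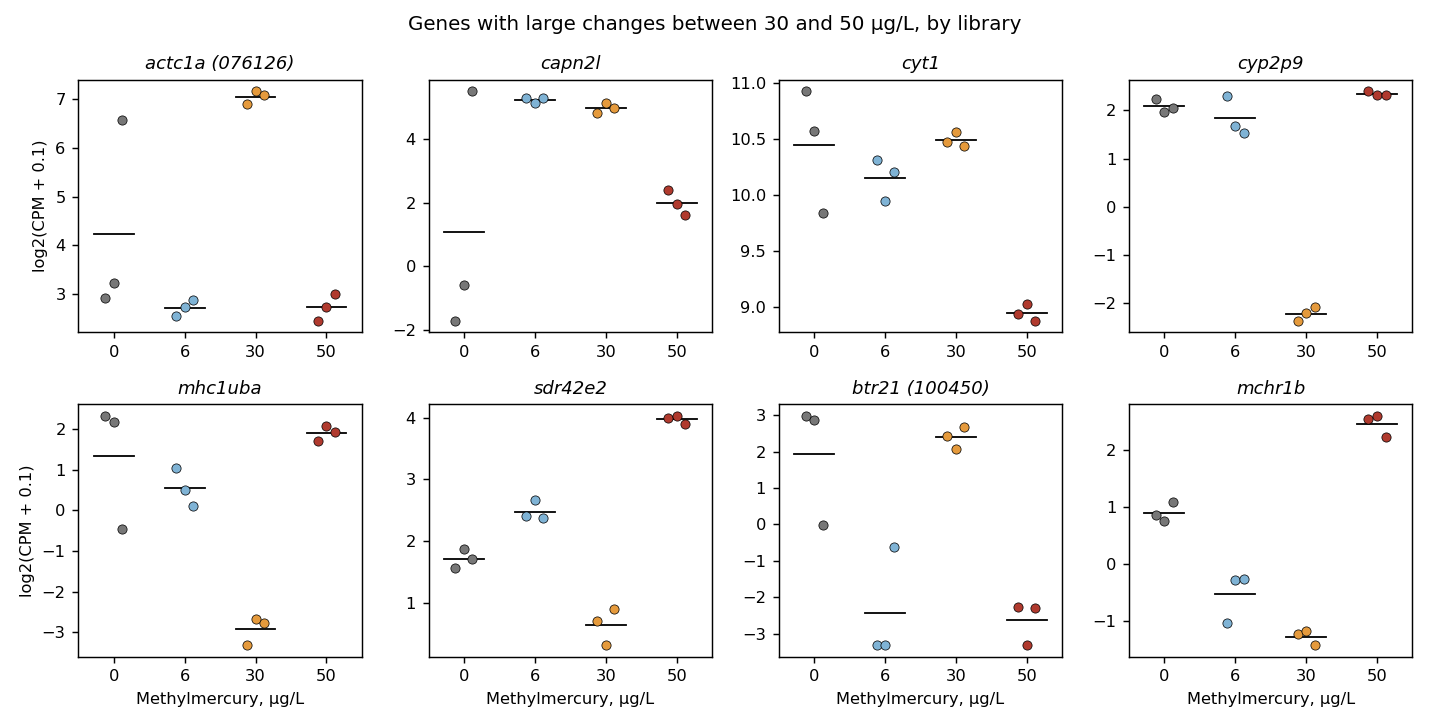
log2(CPM + 0.1) of 8 genes with large changes by methylmercury dose, 1 point a library and a bar at the group mean of 3. For cyp2p9 and mhc1uba the MeHg30 points are the lowest group, and for sdr42e2 and mchr1b the MeHg50 points are the highest. The genes actc1a, capn2l and btr21 fall from 30 to 50 µg/L, each with control replicate 3 far from the other pair.

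Some genes had no read at 1 of the doses. There were 20 genes with no read in the 3 MeHg30 libraries and at least 30 reads over the 3 MeHg50 libraries, and 20 with the reverse. With a floor of 3 reads over the group, si:ch211-147g22.4 on chromosome 25 was at least 128-fold higher at 50 µg/L, and the class I genes mhc1lja and mhc1lda, from the same stretch of chromosome 25, at least 24.9-fold and 13.9-fold higher. In the reverse direction 3 neighbouring genes on chromosome 8 between 22477922 and 22499940 (GRCz11), si:ch211-261n11.7, si:ch211-261n11.8 and CT583651.1, were at least 86-fold, 44.6-fold and 50.1-fold lower at 50 µg/L. The last pair overlaps in position and may share reads. These genes were chosen after their values were seen. Each gene named here also had reads in control libraries, for example 7.99, 7.55 and 0.7155 CPM of si:ch211-261n11.7. At 6 µg/L the 3 chromosome 8 genes had few or no reads, with 0.1115, 0 and 0 CPM for si:ch211-261n11.7. Their near absence was therefore not particular to 50 µg/L.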

How the data were processed

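RNA of whole zebrafish embryos was sequenced in 12 libraries of poly(A) RNA (paired reads of 150 bases, per the labels' protocols), and the 3 MeHg50 and 3 MeHg30 libraries were compared. The deposited table holds whole-number counts of reads per gene, not normalized, and FPKM values that equal the deposited count divided by the deposited gene size and the library total, within 0.005 for 100% of values. The tools listed in the submitters' processing notes, without roles, are HISAT2 2.0.1, HTSeq 0.6.1, FastQC 0.10.1, cutadapt 1.9.1 and DESeq2, and the build is GRCz11, to which coordinates refer. Whether counting used strand, and which annotation release, is not given in the sources used here. Reads of overlapping or antisense genes therefore cannot be assigned with certainty. The gene size in the table, deposited by the authors, served only to check the FPKM.

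Counts were tested with edgeR 4.0.16 in R 4.3.3 (TMM scaling, quasi-likelihood fit, two-sided, Benjamini-Hochberg adjustment over 19539 genes, adjusted p under 0.05). Only the 6 libraries were fitted, by dose alone. An approximate standard error was taken as the size of the log2 fold change over the square root of F. CPM used TMM-scaled totals over the 12 libraries. The fit was tested on simulated data. Library totals of 17586230 to 22207603 reads set the counting precision, and intervals and floors (3 reads) cover counting error only.

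Members and lists were chosen with earlier results of these data known, so no list was tested. The 53 lists hold 1828 symbols, of which 1745 matched by symbol and 30 through older names in a reference table (GRCz12tu, names only). Genes named are the 12 largest rises and falls with a mean of at least 2 CPM, the 10 of smallest p in each direction, up to 4 members of smallest p per list and role, and a set picked for earlier results, 296 in all. Unless said otherwise the text keeps to these. Alternatives were DESeq2 1.42.0, limma 3.58.1 on log2(FPKM + 1) and log2(FPKM + 0.1), other scalings, filters and thresholds, robust estimation, a length correction, a replicate block, all 12 libraries, and each library left out. Results of a few genes, and of 1 list that rests on one of them, are not reported here.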

Additional observations from a re-analysis of the deposited data

How the results depend on the processing

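The counts of 5829 genes called, 2940 higher and 2889 lower, moved by more than 1.5 times under 3 settings. Fitting all 12 libraries gave 1674 called, 815 higher and 859 lower, each of which was also called in the fit of 6 libraries. An adjusted p under 0.01 gave 3564, 1862 and 1702, and a log2 fold change of at least 1 gave 818, 377 and 441, both by construction fewer. Leaving out single libraries gave 4561 to 5366 called, 2352 to 2787 higher and 2209 to 2579 lower. DESeq2 called 4916 and limma on log2(FPKM + 1) 5094. The median log2 fold change of all genes stayed between −0.0117 and −0.0017 under the settings run. The labels do not say whether the replicate numbers pair the samples, and the values here cannot decide it. Same-numbered libraries deviated from their dose means with correlations of 0.149, −0.0124 and 0.105. Of the 6 libraries, 4 correlated best with their own number among the libraries of the other dose. With the replicate block 6587 genes were called, 3361 higher and 3226 lower. Of 281 called genes among the 296 named, 162 kept the call under every setting that tested them. With all 12 libraries 119 lost the call, and none changed sign under any setting. The filter at a mean FPKM of at least 2 tested 261 of the genes named. Reversals were limited to genes not called: with single libraries left out irg1l ran from −0.31 to 0.046 (without MeHg30 replicate 1), and prss59.2 from −0.19 to 0.33, negative without MeHg30 replicate 1 and, at −0.050, without MeHg50 replicate 1. Log2 fold changes of genes of a few reads, such as mhc1uba, shrank with the pseudocount of 1 (1.25 against 6.55). List counts of 3 or fewer called members, other than those given beside the lists, moved by at most 2 genes when single libraries were left out, for example to between 1 and 3 lower hair cell and otolith genes, 1 and 4 higher lens genes, and 1 and 2 lower cholesterol genes.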

Other observations

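Circadian clock genes had 12 members higher (33.3%, against 15% of all genes) and 3 lower of 36 at 50 against 30 µg/L. The clock output factor tefa, which binds promoters of light-driven genes in zebrafish, had 122, 99.3 and 113 CPM at 30 µg/L and 174, 175 and 177 CPM at 50 µg/L and rose by 0.66 ± 0.068. The cryptochrome cry3a had 308, 304 and 311 CPM at 30 µg/L and 178, 176 and 174 CPM at 50 µg/L and changed by −0.80 ± 0.051, and the clock activator arntl2 changed by −0.81 ± 0.079. The doses did not overlap for any of the 3 genes. The labels give no hour of sampling. Once the other 6 libraries entered, 6 clock genes were higher and 2 lower. 

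Hatching gland genes, whose proteases dissolve the egg envelope, had 3 higher and 0 lower of 7. The hatching enzyme he1.1 had 43.4, 34.5 and 50.6 CPM at 30 µg/L and 86.1, 75.9 and 83.5 CPM at 50 µg/L, a rise of 0.93 ± 0.10, and the tetraspanin cd63 rose by 0.37 ± 0.077. For he1.2, which rose by 0.73 ± 0.21, the value was 1.15 without MeHg30 replicate 3, and DESeq2 did not call it (adjusted p = 0.15). Of 3 germ cell genes that passed the filter 1 was higher and 1 lower. The germ plasm helicase ddx4 had 1.45, 1.43 and 2.098 CPM at 30 µg/L and 4.31, 5.24 and 5.59 CPM at 50 µg/L and rose by 1.595 ± 0.21. The lower one, tdrd6, changed by −0.56 (edgeR adjusted p = 0.019). Its call was lost in limma and without MeHg30 replicate 2 or 3 or MeHg50 replicate 1 or 3. Of 25 pigment cell genes 2 were higher and 5 lower. Tyrosinase tyr, the first enzyme of melanin synthesis, had 28.4, 34.4 and 31.5 CPM at 30 µg/L and 21.6, 20.6 and 20.2 CPM at 50 µg/L and changed by −0.59 ± 0.085, and paics, a purine synthesis enzyme, rose by 0.56 ± 0.050. Without single libraries 2 to 5 pigment genes were lower. In the fit of all 12 libraries 0 hatching gland genes were called, 1 germ cell gene was higher and 1 pigment gene lower. There the calls of he1.2, he1.1, cd63, tdrd6 and paics were lost.

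Lysosome and autophagy genes had 13 higher (31%) and 3 lower of 42. The autophagy receptor sqstm1, also an Nrf2 target, had 36.4, 28.9 and 39.96 CPM at 30 µg/L and 48.6, 57.1 and 55.8 CPM at 50 µg/L, a rise of 0.62 ± 0.099 without overlap, and the membrane proteins lamp1b and lamp2 rose by 0.40 ± 0.080 and 0.34 ± 0.061. Of 46 hox genes 0 were higher and 8 lower (17.4%), the lower share near the 14.8% of all genes. The members hoxb8a, hoxb9a, hoxc6b and hoxc10a changed by −0.43 ± 0.075, −0.38 ± 0.071, −0.48 ± 0.12 and −0.56 ± 0.12. Without MeHg50 replicate 3, 5 hox genes were lower. Of 6 pituitary hormone genes gh1 was called (0.85 ± 0.29, adjusted p = 0.038), from overlapping levels of 2.15, 0.917 and 1.19 CPM at 30 µg/L and 2.51, 3.16 and 2.13 CPM at 50 µg/L, and it was not called without any of 4 single libraries (0.65 to 0.88), while without MeHg30 replicate 1 the value was 1.29 (adjusted p = 0.005). The share of tested genes called ran from 26.5% to 37.9% over chromosomes. With all 12 libraries fitted, 2 lysosome genes were higher and 2 hox genes lower. Lost there were the calls of lamp2, gh1, hoxb9a and hoxc10a.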
